A study of Mus musculus with 9 samples.

Results

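The expression of 9 genes of the cell's answer to low oxygen, chosen by name, was followed through the hearts of mice with chronic heart failure: the hypoxia-inducible factor subunits Hif1a, Epas1 and Hif3a, the oxygen sensors Egln1 and Egln3, and the target genes Bnip3, Ankrd37, Car9 and Adm. All of them were found among the 30142 genes measured, each with 1 probe set that carries 1 gene symbol. A further probe set that lists Hif1a beside another symbol was not used.

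Cells sense oxygen through prolyl hydroxylases. In the presence of oxygen the hydroxylases encoded by Egln1 (PHD2) and Egln3 (PHD3) mark the alpha subunits HIF-1α (Hif1a) and HIF-2α (Epas1) for destruction by the von Hippel-Lindau ubiquitin ligase, and when oxygen falls the subunits are spared, pair with ARNT and switch on genes of glucose use, vessel growth and mitochondrial turnover. HIF is therefore governed chiefly at the protein, and the transcript of a subunit is not a reading of its activity. Egln3, Bnip3, Ankrd37, Car9 and Adm are induced by HIF in many cell types. In the infarcted heart the pathway is known for the border of the scar, where vessels are sparse, and adrenomedullin, a peptide that widens vessels and tightens the endothelial barrier, is known to rise in heart failure.

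The arrays came from whole hearts of immunodeficient nude mice in which the left anterior descending artery had been tied permanently. Treatment followed 3 weeks after the infarct in mice with an ejection fraction under 50%, and the hearts were taken 6 weeks after treatment. The medium group (2 arrays) received alpha-MEM culture medium, the vesicle group (3 arrays) the extracellular vesicles that 500000 cardiovascular progenitor cells had released in 48 hours, the cell group (3 arrays) 500000 such cells, and the sham heart (1 array) needle punctures with no injection. The labels give chronic heart failure for all of these hearts, the sham-operated one included; they do not state outright that the sham heart had been infarcted, so what a sham minus medium value compares is not certain. Array 1 of each group carries experiment number 9, and the remaining arrays of the medium, vesicle and cell groups carry experiment number 1. A second number in the titles, VTS, also ties arrays across groups: 3 for experiment 9, 1 for array 2 of each injected group, and 2 for vesicle array 3 and cell array 3, which have no medium array of that number. The labels give no age, sex or strain beyond nude, no origin of the injected cells, and nothing that makes each array a separate animal, so the p-values measure only the spread between these arrays.

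Because HIF binds a short core, ACGTG or GCGTG, the bases before the start of the genes were searched for both cores on both strands in RefSeq promoters of build GRCm38.p6. Windows were matched for 8 of the 9 genes, all but Epas1, and each of the 8 held at least 1 core in the 250 bases before its start, where 38.6% of all 32851 promoters do. ACGTG occurs in 16.6% and GCGTG in 28.2% of them, each counted with or without the other core. ACGTG overlaps the E-box CACGTG, the site of CLOCK and other factors, which 6.02% hold. The windows below are shown for the target genes and sensors on which the results turn, written 5′ to 3′ along the gene with the cores of either strand in capitals. Adm lies at chr7:110627555-110627619 on the plus strand, Bnip3 at chr7:138909589-138909635, Egln3 at chr12:54204087-54204115 and Egln1 at chr8:124949306-124949334, these 3 on the minus strand.
Adm: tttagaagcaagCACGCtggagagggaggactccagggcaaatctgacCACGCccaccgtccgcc
Bnip3: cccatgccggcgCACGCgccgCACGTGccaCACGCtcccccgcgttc
Egln3: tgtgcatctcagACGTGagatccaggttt
Egln1: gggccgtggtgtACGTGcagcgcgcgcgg
The 65 bases of Adm hold 2 cores, both GCGTG read on the opposite strand, and no E-box occurs in its 250 bases. The 47 bases of Bnip3 hold 4 cores, 2 of which are the strands of one E-box. In their 250 bases Bnip3 holds 5 cores and Egln1 2, so each has a core outside the window shown. Hif1a, not shown, holds 3 cores, 2 of which are the strands of one E-box. These matches describe letters, and no binding was measured in these hearts.

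The tissue matched its label: 7 of 7 measured heart muscle markers (Myh6, Tnnt2, Tnni3, Myl2, Mybpc3, Ryr2 and Pln) lay above background on all 9 arrays, background being the level that 95% of the negative controls do not exceed, as did 8 of 8 endothelial and 7 of 7 fibroblast markers. Some arrays stood apart. Of 10 lung markers, 3 lay above background on vesicle array 3 and 0 on each other array, with the surfactant gene Sftpc at a log2 value of 9.75 there, 6.35 on the sham array and 4.28 to 4.52 on the other 7. Immediate early genes lay 0.75 above their gene means on cell array 3 and between −0.31 and 0.057 on the rest. Clock genes differed on cell arrays 2 and 3, as described with Adm below. The arrays are of whole hearts, so fewer cells of a type and less RNA per cell cannot be told apart in any value that follows.

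The genes fell into those clearly above background and those at or under it. Hif1a, Epas1, Egln1, Egln3 and Bnip3 exceeded background, which lay between 7.18 and 7.28 on the log2 scale depending on the array, on 9 of 9 arrays. Adm exceeded it on 1 array, cell array 2, and lay under it on the other 8. Hif3a, Ankrd37 and Car9 lay under it on all 9 arrays, so their values carry little information on expression. The deposited values also hold ties: Hif3a has the very same value, 6.00, on 7 of 9 arrays, and Hif1a, Bnip3, Ankrd37 and Car9 repeat 1 value on 3 arrays each. A tie narrows the apparent spread.

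**Figure D1:**
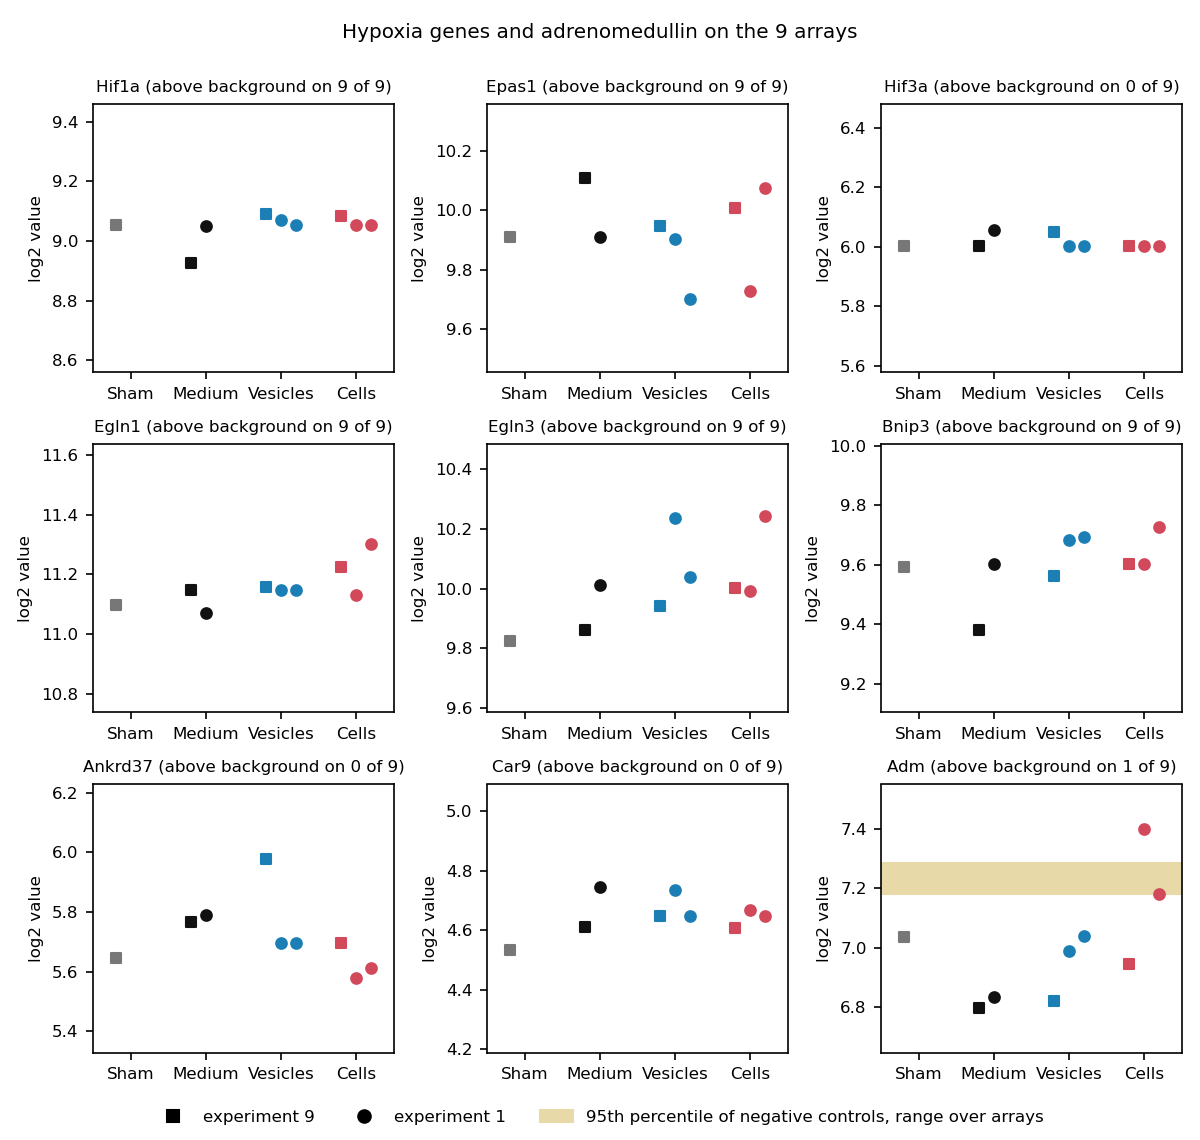
Log2 value (vertical axes, of equal span in every panel) of the 9 genes on every array, by group; squares are arrays of experiment 9, circles of experiment 1, and the band is the range of background over arrays. Adm is lowest on medium array 1, vesicle array 1 and medium array 2 (6.80 to 6.84) and highest on cell arrays 2 and 3 (7.40 and 7.18).

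Among the transcription factor subunits, none changed beyond the spread between arrays. Hif1a, the subunit induced in nearly every tissue, stood at 8.93 and 9.05 on medium arrays 1 and 2, at 9.09, 9.07 and 9.05 on vesicle arrays 1 to 3, at 9.08, 9.05 and 9.05 on cell arrays 1 to 3 and at 9.05 on the sham array. Every treated array lay above both medium arrays, but only medium array 1 lay clearly apart, and the gap to medium array 2 was at most 0.021 in experiment 1. The fitted log2 difference from medium was 0.082 ± 0.040 (SE; 95% interval −0.020 to 0.18) after vesicles and 0.075 ± 0.040 (−0.027 to 0.18) after cells, with limma adjusted p = 0.676 and 0.682. Without medium array 1 these differences were 0.013 and 0.0053, and without medium array 2 they were 0.17 and 0.16.

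Epas1, the HIF-2α subunit prominent in endothelium and lung, stood at 10.11 and 9.91 after medium, at 9.95, 9.90 and 9.70 after vesicles, at 10.01, 9.73 and 10.07 after cells and at 9.91 in the sham heart. Its groups overlapped. The lowest value came from vesicle array 3, the array with lung transcripts, and the part of lung tissue in that value was not tested. The differences were −0.13 ± 0.12 (95% interval −0.43 to 0.16) after vesicles and −0.049 ± 0.12 (−0.35 to 0.25) after cells, and without vesicle array 3 the vesicle difference was −0.084. Hif3a, whose product can restrain HIF, took only 3 values, 6.00, 6.05 and 6.06, all under background, and its differences were −0.011 ± 0.026 after vesicles and −0.027 ± 0.026 after cells, both of which turned sign when the arrays were centred on their medians.

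The oxygen sensors were close to level. Egln1, the main hydroxylase of HIF-1α, stood at 11.15 and 11.07 after medium, 11.16, 11.15 and 11.15 after vesicles, 11.22, 11.13 and 11.30 after cells and 11.10 in the sham heart. The groups overlapped or touched, and the vesicle arrays had an SD of 0.0049 (n = 3). Its difference was 0.046 ± 0.054 (95% interval −0.091 to 0.18) after vesicles and 0.11 ± 0.054 (−0.023 to 0.25) after cells. Egln3, the hydroxylase that HIF itself induces, stood at 9.86 and 10.01 after medium, 9.94, 10.24 and 10.04 after vesicles, 10.00, 9.99 and 10.24 after cells and 9.82 in the sham heart. Vesicle array 2 and cell array 3 were high, and all groups overlapped. Its differences were 0.11 ± 0.094 (−0.13 to 0.35) and 0.12 ± 0.094 (−0.12 to 0.36), with limma adjusted p = 0.758 and 0.764.

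Of the target genes, Bnip3, which encodes a mitochondrial protein that drives the removal of mitochondria, stood at 9.38 and 9.60 after medium, 9.56, 9.68 and 9.69 after vesicles, 9.60, 9.60 and 9.73 after cells and 9.59 in the sham heart. Medium array 1 was low and medium array 2 lay inside the range of the treated arrays. The difference was 0.13 ± 0.052 after vesicles (95% interval 0.0011 to 0.26) and 0.13 ± 0.052 after cells (−0.00023 to 0.26), with unadjusted p = 0.0487 and 0.0503 and limma adjusted p = 0.676 and 0.682. Without medium array 1, when the spread of the lone medium array is taken from the other groups, the differences were 0.074 and 0.072, and without medium array 2 they were 0.20 and 0.20. Ankrd37, an ankyrin repeat protein induced by HIF, stood at 5.77 and 5.79 after medium, 5.98, 5.70 and 5.70 after vesicles, 5.70, 5.58 and 5.61 after cells and 5.65 in the sham heart. The cell arrays lay under both medium arrays, though every value is in the range of background, and the difference was −0.13 ± 0.069 (−0.30 to 0.049; limma adjusted p = 0.683). It was −0.22 without medium array 1 and −0.010 without medium array 2. Car9, the membrane carbonic anhydrase used as a hypoxia marker in tumours, ran from 4.54 on the sham array to 4.74 on medium array 2 and was nowhere above background, with differences of −0.012 ± 0.036 after vesicles, a sign that quantile normalization or median centring turned, and −0.047 ± 0.036 after cells.

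Adm had the widest difference of the 9 genes between cells and medium. It stood at 6.80 and 6.84 on medium arrays 1 and 2, at 6.82, 6.99 and 7.04 on vesicle arrays 1 to 3, at 6.95, 7.40 and 7.18 on cell arrays 1 to 3 and at 7.04 on the sham array. All 3 cell arrays lay above both medium arrays, the vesicle arrays overlapped the cell arrays, and the lowest vesicle array lay between the medium arrays. Against the medium array of its own experiment, cell array 1 was higher by 0.15 log2 units, cell array 2 by 0.56 and cell array 3 by 0.34. The fitted difference was 0.32 ± 0.094 (SE, 3 cell and 2 medium arrays), or 1.25-fold, with a 95% interval of 0.086 to 0.56 and an unadjusted p of 0.0170, which did not pass over all genes (limma adjusted p = 0.682). After vesicles it was 0.099 ± 0.094 (−0.14 to 0.34), turning to −0.025 without medium array 2, and vesicles against cells gave −0.22 ± 0.083 (unadjusted p = 0.0408, limma adjusted p = 0.920). Without medium array 2 the cell difference was 0.20, without medium array 1 it was 0.43, and with the sham array counted as a medium array 0.23.

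**Figure D2:**
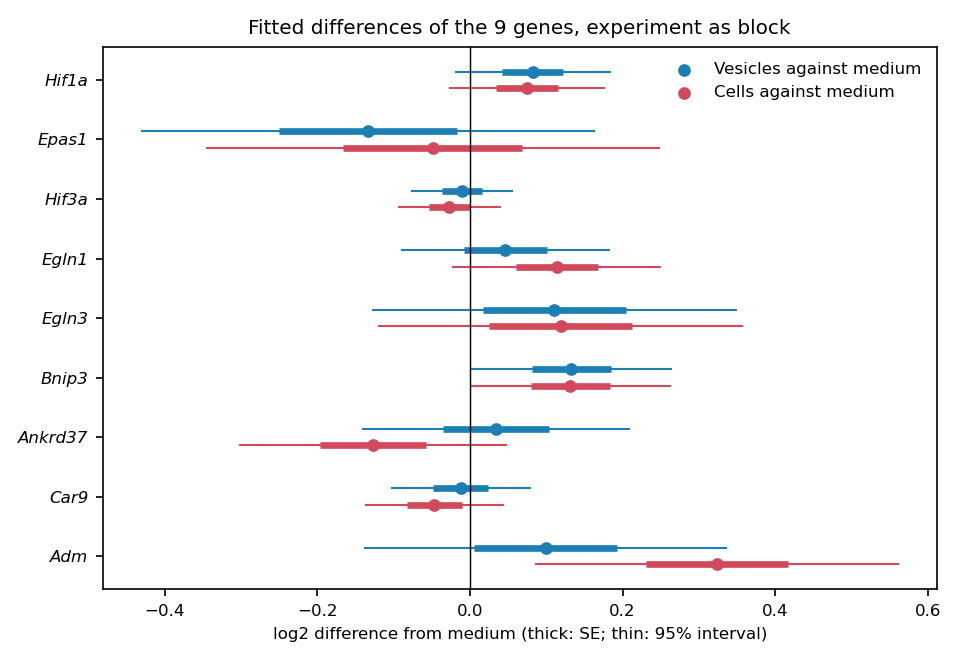
Fitted log2 difference from medium (horizontal axis) of each gene after vesicles (blue) and cells (red), from 8 arrays with the experiment as a block; thick bars are standard errors and thin bars 95% intervals. The interval of Adm after cells, 0.086 to 0.56, and that of Bnip3 after vesicles, 0.0011 to 0.26, are the only ones clear of 0, before any adjustment for the number of genes.

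No member passed limma's test in any comparison, and nor did any other gene. At an adjusted p under 0.05, vesicles against medium gave 0 of 30142 genes (0%), and cells against medium, vesicles against cells and experiment 9 against experiment 1 gave 0 as well (0% each). The counts for vesicles and for cells against medium moved without medium array 1. That fit leaves 1 medium array and holds no spread between medium arrays. Its counts appear only with the alternatives below and are not read as calls. At an unadjusted p under 0.05, 1 of the 9 (Bnip3) stood out after vesicles, where 6.44% of all genes did, and 1 of the 9 (Adm) after cells, where 6.73% did. Between vesicles and cells the count was 2 of 9 (Adm, and Ankrd37 at 0.16 ± 0.061) against 4.34% of all genes. The arrays of the groups did not overlap for 1 of the 9 genes between vesicles and medium (Hif1a), against 10.9% of all genes, and for 3 of the 9 between cells and medium (Adm, Hif1a and Ankrd37), against 8.77%. As Adm was known from earlier results to stand out after cells, that count is a description. The median difference of the 9 genes was 0.046 after vesicles and 0.075 after cells, beside −0.012 and −0.0064 over all genes. Over all genes 39.5% were higher after vesicles and 44.1% after cells, shares that stand beside each list count below. Markers of other cells moved as well: 8 of 8 endothelial markers were higher after both treatments (medians 0.071 and 0.083). Their mean deviation from their gene means ran from −0.096 to 0.0073 on medium, 0.0043 to 0.062 on vesicle and −0.025 to 0.083 on cell arrays. Of 7 fibroblast markers 7 were higher after vesicles (median 0.14) and 1 after cells (median −0.035). Of 17 immediate early genes 16 were higher after cells (median 0.31, 4 at an unadjusted p under 0.05) and 14 after vesicles (median 0.11). That list lay at −0.093, 0.057 and 0.75 from its gene means on cell arrays 1 to 3, and 9 of its 17 genes had a mean above background. Of 7 atrial markers 5 were higher after cells (median 0.033) and 2 after vesicles (median −0.11). Sln and Myl7, genes of atrial muscle, were 0.50 ± 0.12 and 0.38 ± 0.12 after cells, −0.18 ± 0.12 and −0.33 ± 0.12 after vesicles, and −0.68 ± 0.11 and −0.72 ± 0.11 between vesicles and cells, where Adm stood at −0.22. The atrial list mean was 0.37 and 0.36 above its gene means on cell arrays 2 and 3, the arrays with the highest Adm, 0.25 on medium array 2, 0.039 and 0.12 on vesicle arrays 2 and 3, and −0.34 to −0.17 on the 4 arrays of experiment 9. None of these markers passed limma's test, and their part in the values of the 9 genes was not tested. Both comparisons share the medium arrays, and medium array 1 had the lowest value of the 9 arrays for Hif1a, Bnip3 and Adm and the highest for Epas1.

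More genes stood out between the experiments than between treatments, though none passed. Experiment 9 minus experiment 1 gave −0.21 ± 0.075 for Adm and −0.13 ± 0.041 for Bnip3 (unadjusted p = 0.0393 and 0.0256, limma adjusted p = 0.387 and 0.361), so 2 of 9 genes stood out at an unadjusted p under 0.05 beside 12.8% of all genes. Over all genes 41.5% were higher in experiment 9. Atrial markers were lower in experiment 9 for 7 of 7 (median −0.37, 5 at an unadjusted p under 0.05), with −1.28 ± 0.096 for Sln and −1.13 ± 0.099 for Myl7 (limma adjusted p = 0.212 for each). Only 3 or 4 of the 7 atrial markers lay above background on each array of experiment 9. Heart muscle markers were higher there for 7 of 7 (median 0.072, 5 at an unadjusted p under 0.05), and the part of either in the Adm and Bnip3 values was not tested. Egln3 (−0.15 ± 0.075) was lower and Epas1 (0.15 ± 0.094) higher in experiment 9 (limma adjusted p = 0.44 and 0.521). An interaction term of treatment and experiment was added after the values were seen and left with 2 residual degrees of freedom. In it each medium array stands alone in its experiment, as do vesicle array 1 and cell array 1. The residual spread thus comes only from vesicle arrays 2 and 3 and cell arrays 2 and 3. For Adm after cells the difference was 0.15 in experiment 9 and 0.45 in experiment 1, a gap of −0.31. Hif1a was 0.16 above medium after cells in experiment 9 and 0.0056 in experiment 1, a gap of 0.15. Cell arrays 2 and 3 share 1 value for Hif1a, while medium arrays 1 and 2 stood at 8.93 and 9.05. The sign of Ankrd37 after vesicles turned, from 0.21 in experiment 9 to −0.093 in experiment 1. No spread between medium arrays enters the term, so its p-values and counts are not given.

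The sham heart was set beside the medium heart of its experiment by value only, with 1 array each. Adm was 0.24 higher in the sham heart, Bnip3 0.21 higher and Hif1a 0.13 higher, while the difference was −0.20 for Epas1 and −0.12 for Ankrd37. Egln1 (−0.052), Egln3 (−0.037) and Car9 (−0.075) differed less, and Hif3a had the same value. The residual spread of the injected arrays was 0.11 for Adm, 0.062 for Bnip3, 0.047 for Hif1a and 0.14 for Epas1. The treated hearts of experiment 9 lay on the same side of medium array 1 as the sham heart for Adm, Bnip3, Hif1a and Epas1. Medium array 1 was thus the extreme value of its experiment for these 4 genes.

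The other members were set against Adm across the arrays. Over the 9 arrays, 8 relations with Adm were computed, and Pearson's r ran from −0.79 for Ankrd37 to 0.50 for Bnip3. By exact permutation of the pairing, two-sided, Ankrd37 had r = −0.79 (p = 0.0158, adjusted over the 8 relations 0.126) and Spearman's rho = −0.90 (p = 0.0021, adjusted 0.0164). Without cell arrays 2 and 3, the arrays farthest from the median of Adm, its r was −0.74. Ankrd37 lies under background on every array, and Adm on every array but cell array 2. Bnip3 had r = 0.50 and rho = 0.70 (exact permutation p = 0.176 and 0.0446, adjusted 0.417 and 0.178), and r = 0.73 without those arrays. Egln1 (0.24), Hif1a (0.25), Egln3 (0.31) and Car9 (−0.023) had smaller values of r, and Epas1 and Hif3a had −0.49 and −0.51, with adjusted exact permutation p for r of at least 0.417. These p-values ignore the experiment, and the experiments hold 4 and 5 arrays, too few for a test within each. With each experiment's mean removed r was −0.74 for Ankrd37, −0.68 for Car9, −0.58 for Hif3a, −0.31 for Epas1, −0.098 for Egln3, 0.19 for Hif1a, 0.24 for Bnip3 and 0.26 for Egln1. Car9 thus moved from near 0, Bnip3 lost part of its r and Egln3 turned sign.

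The genes most like and most opposed to Adm included genes of the daily clock. Among 5050 genes whose mean over the arrays lay above background, the 5 with the highest correlation over the 9 arrays were Clock, the partner of BMAL1 in the clock's activating complex (r = 0.93), Gtf2b, a general transcription factor (0.92), Ypel2 (0.90), Adam19, a membrane protease (0.89), and Rflnb, a filamin-binding protein (0.88). The 3 most opposed were Bhlhe41, a repressor within the clock that low oxygen is also known to induce (−0.96), Eef2k, the kinase of translation elongation factor 2 (−0.95), and Dbp, a transcription factor driven by the clock (−0.93). Adm itself, with a mean of 7.01, lay under background on every array but cell array 2. Adam19 lay under background on the 4 arrays of experiment 9, and Bhlhe41 (7.13) and Eef2k (7.18) lay under it on cell array 2, the array with the highest Adm. Gtf2b (7.23 to 7.37) and Ypel2 (7.72 to 7.87) varied little and each repeat 1 value on several arrays. These genes were picked for their r out of all of them, so no test applies, and the points share their arrays, their normalization and the experiments. With each experiment's mean removed r was 0.94 for Clock, −0.94 for Bhlhe41 and −0.90 for Dbp, and without cell arrays 2 and 3 it was 0.79, −0.83 and −0.69.

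The values show how the arrays line up. Dbp stood at 7.27 on cell array 2 and 8.02 on cell array 3, the arrays with the highest Adm, and between 8.85 and 9.26 on the other 7. Clock stood at 9.16 and 9.09 on those arrays, at 8.95 and 8.96 on vesicle arrays 2 and 3, and between 8.72 and 8.87 on the other 5. Fos stood at 8.14 on cell array 3, at 6.70 on cell array 2, the next highest, and between 6.11 and 6.59 on the other 7. Only its value on cell array 3 lay above background. The mean deviation of the immediate early list was also highest on cell arrays 3 and 2 (0.75 and 0.057), and its part in the Adm values was not tested. Between cells and medium the fit gave 0.22 ± 0.066 for Clock, 0.93 ± 0.30 for Arntl, which encodes BMAL1 and whose mean lies under background, and −0.78 ± 0.37 for Dbp, none past limma's test (adjusted p = 0.682 for each). Of 11 clock genes measured, 4 were higher and 7 lower after cells, 2 and 1 of them at an unadjusted p under 0.05. The mean deviation of the list, which joins genes of opposite phase, ran from −0.27 to 0.067 on cell arrays, −0.0040 to 0.058 on medium arrays and 0.047 to 0.14 on vesicle arrays, and 5 to 7 of its 11 genes lay above background on each array. The part of the daily rhythm in the Adm values was not tested.

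**Figure D3:**
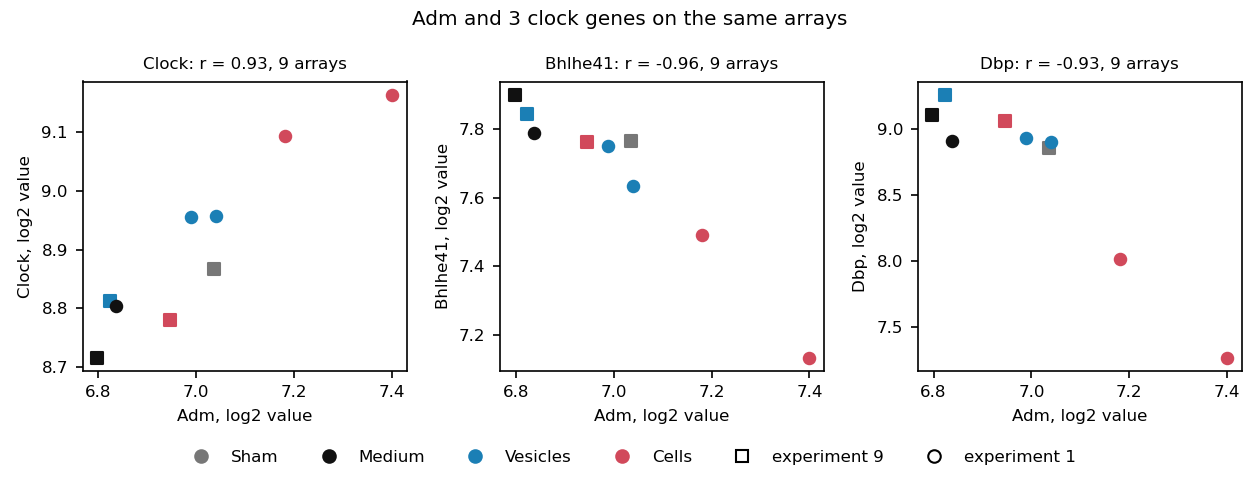
Log2 value of Adm (horizontal axes) against those of Clock, Bhlhe41 and Dbp (vertical axes) on the 9 arrays; colours give the group and shapes the experiment. Cell arrays 2 and 3 lie at the end with the highest Adm and Clock and the lowest Bhlhe41 and Dbp, and without them r is 0.79 for Clock, −0.83 for Bhlhe41 and −0.69 for Dbp.

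The partners of adrenomedullin gave no common picture. Its receptor is formed by Calcrl with Ramp2 or Ramp3. Of 10 measured genes of this system (12 listed), 3 were higher and 7 lower after vesicles and 4 higher and 6 lower after cells, with medians of −0.024 and −0.031, and 0 passed the test in either direction. Of all genes 39.5% were higher after vesicles and 44.1% after cells, which applies to the list counts below as well. Calcrl stood at 7.19 and 7.22 after medium, 7.34, 7.35 and 7.29 after vesicles and 7.29, 7.15 and 7.26 after cells, a difference of 0.13 ± 0.049 after vesicles (unadjusted p = 0.0474) and 0.034 ± 0.049 after cells. All 3 vesicle arrays lay above both medium arrays, and the cell arrays spanned them. Calcrl lay close to background on every array, and under it on medium array 1 and cell array 2. Gpr182, an orphan receptor of endothelium once proposed for adrenomedullin, was −0.15 ± 0.050 from medium after cells (unadjusted p = 0.0322), with a mean level under background. Pam, the enzyme that amidates the peptide, was high on every array (10.71 to 11.04).

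The other genes of oxygen sensing and of glucose use had list medians near 0, while single genes differed more widely. Of 12 measured regulators (15 listed) 8 were higher and 4 lower after vesicles and 6 and 6 after cells, with medians of 0.0094 and 0.025. Hif1an, the asparaginyl hydroxylase that blocks the activation domain of HIF, was 0.14 ± 0.059 from medium after cells. Its values of 7.44, 7.36 and 7.47 on the cell arrays overlapped those of 7.38 and 7.20 on the medium arrays. Arnt, the common partner of the alpha subunits, was 0.043 ± 0.027 after vesicles and 0.052 ± 0.027 after cells. Of 15 measured targets of glucose use (17 listed) 5 were higher and 10 lower after vesicles and 9 and 6 after cells, with medians of −0.0097 and 0.017, and Hk2, the insulin-responsive hexokinase, was 0.079 ± 0.047 after cells. Ppp1r3c, which steers glycogen synthesis, was 0.28 ± 0.18 after cells. None of these genes passed the test in either direction.

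Targets of vessels, blood and iron numbered 13 measured (14 listed), with 9 higher and 4 lower after each treatment and medians of 0.0088 and 0.039. Vegfa, the main growth factor of vessels, stood at 9.80 and 9.72 after medium, 9.81, 9.92 and 9.81 after vesicles, 9.79, 10.08 and 10.08 after cells and 9.65 in the sham heart. Cell arrays 2 and 3 were high, and cell array 1 lay between the medium arrays. Its difference was 0.21 ± 0.089 after cells. Edn1, the vasoconstrictor endothelin, was 0.14 ± 0.048 after cells and Hmox1, the heme oxygenase, −0.15 ± 0.056 (unadjusted p = 0.0316 and 0.0412), both with mean levels under background.

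Targets of stress, mitochondria and matrix numbered 19 measured of 19 listed, with 10 higher and 9 lower after vesicles and 11 and 8 after cells, and medians of 0.0022 and 0.018. Ddit4, a brake on growth signalling that glucocorticoids also induce, stood at 6.997 and 7.15 after medium, 7.47, 7.53 and 7.64 after vesicles, 7.09, 7.62 and 7.95 after cells and 7.80 in the sham heart. All 3 vesicle arrays lay above both medium arrays, and cell array 1 lay between them. Ddit4 lay under background on both medium arrays and on cell array 1. Its difference was 0.42 ± 0.18 after both treatments. Of 12 glucocorticoid response genes 10 were higher after vesicles (median 0.081) and 6 after cells (median −0.0065). Their mean deviation from their gene means was −0.18 and 0.030 on the medium arrays and 0.10 on the sham array. It ran from 0.0097 to 0.10 on the vesicle arrays and −0.19 to 0.19 on the cell arrays. The part of these genes in the Ddit4 values was not tested. Higd1a, a mitochondrial protein of the hypoxic response, was 0.17 ± 0.059 from medium after cells (unadjusted p = 0.0329). Over these 4 lists and the adrenomedullin system 0 genes passed at an adjusted p under 0.05 by limma in any comparison. Between the experiments Lox, the collagen cross-linking enzyme, was −0.56 ± 0.13 in experiment 9 (limma unadjusted p = 0.0066). Angpt2, a vessel-destabilizing ligand, was −0.20 ± 0.046 there (limma unadjusted p = 0.0068). Lox and Angpt2 both had mean levels under background. Trf was −0.35 ± 0.096 and Bnip3l, in the other direction, 0.10 ± 0.024 in experiment 9 (limma unadjusted p = 0.0138 and 0.0086). The mean levels of Trf and Bnip3l lay above background. Beside the atrial markers, the fibroblast markers had 6 of 7 and macrophage markers 8 of 8 genes lower in experiment 9. Only 2 of the 8 macrophage markers had a mean above background. The part of these cell types in the values of Lox, Angpt2, Trf and Bnip3l was not tested.

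**Figure D4:**
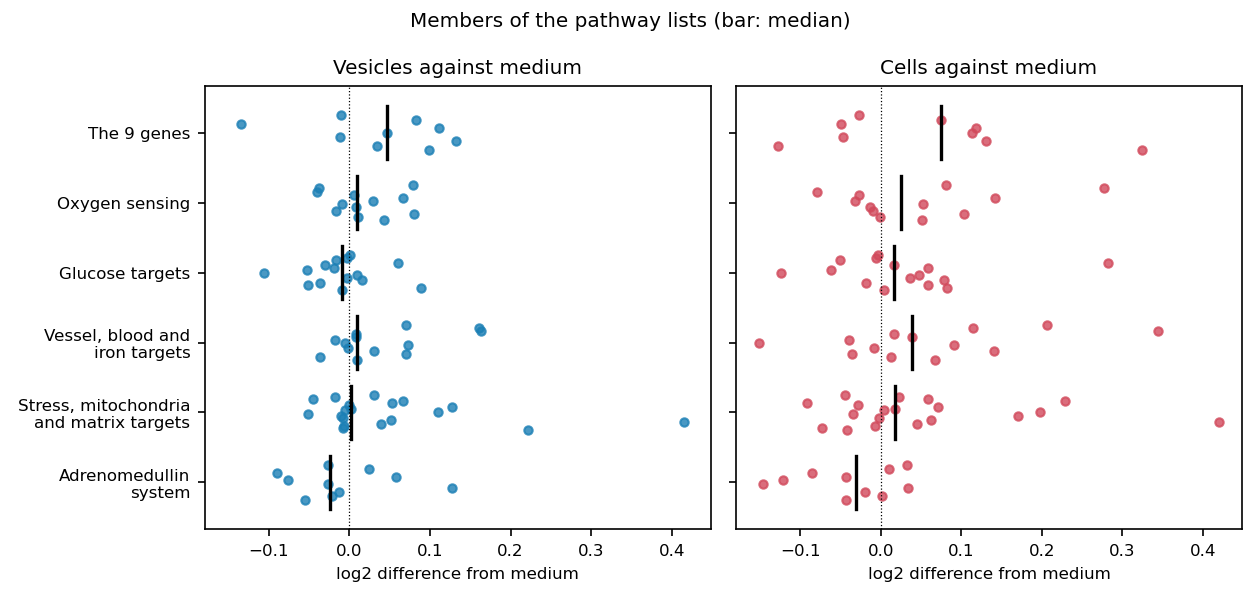
Log2 difference from medium (horizontal axes) of each gene of the 9-gene set and the 5 pathway lists after vesicles (left) and cells (right); each point is a gene and each bar the median of its list. The medians lie between −0.024 and 0.046 after vesicles and between −0.031 and 0.075 after cells.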

How the data were processed

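Expression was measured on 9 Affymetrix arrays. The authors deposited log2 values, 1 per probe set and array, already normalized; the log base was inferred from their range of 1.55 to 14.2. How background and normalization were handled is not stated in the labels; the submitters' processing notes list Partek with no role. Arrays carry no depth, and their number limits the precision.

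Of 80202 probe sets, 30604 carry 1 symbol in the platform table. Symbols were updated by Entrez number through RefSeq (GRCm38.p6). The probe set with the highest mean stood for its gene, which left 30142 genes, 61.1% of them with a value repeated on 3 or more arrays. limma 3.58.1 (R 4.3.3; lmFit, eBayes) was run on the 8 injected arrays with treatment and experiment as terms (4 residual and 1.18 prior degrees of freedom). Tests are two-sided, with Benjamini-Hochberg adjustment over all genes and 0.05 as the threshold; ± precedes a standard error unless SD is named. Background is the 95th percentile of 10553 negative control probe sets. The fit was tested on simulated data. Replicates were numbered by accession, which pairs no arrays; the VTS number, which ties arrays across groups, was tried as a block. The alternatives covered scaling, dim and tied genes, blocks, moderation, the sham array and each array left out; the interaction was added after the values were seen.

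The members, lists and tests were chosen with earlier results of these data known. Besides the members, pathway genes with values came from the up to 3 per list and comparison with the lowest unadjusted p. Not all of these are given. The 5 genes most like and 3 most unlike Adm were also named. Sftpc, Fos and Dbp are named where a member moves with them; Arntl, Sln and Myl7 were picked after their values were seen.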

Additional observations from a re-analysis of the deposited data

How the results depend on the processing

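Of the 9 genes, 0 passed limma's test in any comparison under any alternative. Of 662 values under the alternatives 44 turned sign, none of them called; the cause was not tested. Adm after cells kept its sign in 19 of 19 alternatives, between 0.20 and 0.43, and Bnip3 after either treatment in 19 of 19. The vesicle difference of Car9 became 0.0053 with the VTS number of the titles as block, 0.0049 after quantile normalization, 0.0092 after median centring, 0.018 with the sham array among the medium arrays, and 0.014 without vesicle array 3 and cell array 3. That of Hif3a became 0.0041 after quantile normalization and 0.011 after median centring, which also gave 0.0027 for Hif3a after cells. Between vesicles and cells, Egln3 became 0.0050 after quantile normalization, Bnip3 −0.0071 and Hif1a −0.0011 after median centring, and Egln3 0.090 and Epas1 0.058 without vesicle array 3 and cell array 3. Between the experiments, Egln1 became −0.026 after quantile normalization, Hif1a 0.021 after median centring and 0.00055 with the sham array pooled, and Hif3a −0.0021 with that pooling and −0.0021 without vesicle array 3 and cell array 3. Over all genes, least squares without moderation called 4 after vesicles and 2 between the experiments, leaving out tied genes called 2 between the experiments, and pooling the sham array called 1 after cells. With each array left out in turn, the number of genes called ran from 0 to 823 after vesicles and from 0 to 901 after cells, the upper ends without medium array 1. Without medium array 1 the fit holds no spread between medium arrays, so the upper ends are not read as calls. After vesicles, differences that turned sign with an array left out ran from −0.025 to 0.20 for Adm and −0.047 to 0.032 for Hif3a. They ran from −0.063 to 0.15 for Ankrd37 and −0.052 to 0.035 for Car9. After cells they ran from −0.14 to 0.031 for Epas1, −0.063 to 0.016 for Hif3a and −0.086 to 0.00072 for Car9. Between vesicles and cells they ran from −0.045 to 0.036 for Bnip3, −0.084 to 0.054 for Egln3, −0.17 to 0.017 for Epas1, −0.015 to 0.029 for Hif1a and −0.0078 to 0.025 for Hif3a. Between the experiments they ran from −0.036 to 0.030 for Hif1a and −0.024 to 0.024 for Hif3a. Keeping only genes above background removed Adm, Hif3a, Ankrd37 and Car9, and leaving out tied genes removed Hif1a, Hif3a, Bnip3, Ankrd37 and Car9, so those alternatives gave no value for them. With the VTS number as block, which pairs arrays across groups, 0 genes were called in any treatment comparison and Adm after cells was 0.33 ± 0.11 (adjusted p = 0.798). With 2 medium arrays the comparisons lean on each of them, and signal at or under background limits Adm, Hif3a, Ankrd37 and Car9.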
